A study of Mus musculus with 3 samples.

Results

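The 10 genes described here are Slc7a11 and 9 genes of the antioxidant response: Hmox1, Nqo1, Gclc, Gclm, Txnrd1, Srxn1, Prdx1, Nfe2l2 and Gpx4. They were found as the rows whose symbol is one of these names, and all 10 were present once among the 32285 genes of the count matrices. Slc7a11 was selected on a measured value, its lower level in the tenocytes of both other libraries than in those of 6 M WT, so those values are given as a description. Single-cell RNA sequencing (10x Genomics, which counts unique molecular identifiers, UMIs) was made of cells digested from the flexor digitorum longus (FDL) tendon of the mouse foot. 3 libraries were measured. Each pooled 16 tendons from males and females, so there was 1 library per group and no value has a replicate error. The 6 M DTR library came from Scx-Cre+; DTR F/+ mice, in which Cre driven by the tendon gene Scleraxis turns on the receptor for diphtheria toxin in cells of that lineage, given 5 daily doses of the toxin (DT). According to the study the toxin kills cells of that lineage, so the tenocytes of this library are cells that remained after depletion. A change within cells and a change in which cells were left cannot be told apart. The 6 M WT library came from Scx-Cre-; DTR F/+ mice, which carry the receptor allele without Cre and received the same 5 doses. The 21 M B6 library came from untreated mice of genotype C57/Bl6, 21 months old. The labels give the strain C57BL/6J for all 3. They are called WT, DTR and B6 from here on. The labels give an age of 3 months for WT and DTR and the study's methods an age of 6 months at harvest, with the toxin given at 3 months. The digest lasted 2 h for WT and 1.5 h for the other 2 libraries, so the length of the digest and the group cannot be told apart in any comparison with WT. Age, the DTR allele and DT also differ together between B6 and WT and cannot be told apart.

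Cysteine is the building block of glutathione, the main soluble antioxidant of the cell, that is most often in short supply. Slc7a11 (also called xCT) is the transporter subunit that brings in cystine in exchange for glutamate, paired with the heavy chain Slc3a2. Gclc and Gclm are the catalytic and modifier subunits of the enzyme that starts glutathione synthesis, and Gpx4 uses glutathione to reduce lipid peroxides, which holds back ferroptosis, a form of cell death driven by iron and lipid peroxidation. The transcription factor NRF2, made from Nfe2l2, is held down by Keap1 and, when released, pairs with small MAF proteins at antioxidant response elements near genes such as Hmox1, Nqo1, Txnrd1, Srxn1 and Prdx1. Slc7a11 is known to answer also to ATF4, the factor of the amino acid and integrated stress response.

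The promoter letters of the members are shown first, for Slc7a11, the 1 member with a match to the ATF4 pattern, and for the 2 members with the longer NRF2 pattern. Of the 10 members, 8 had a promoter in the RefSeq table of GRCm38.p6 (13 windows, since Txnrd1 and Gpx4 have several starts), and Hmox1 and Gclc had none. The 250 bases before each start were searched on both strands for TGACNNNGC (the core of the antioxidant response element), for TGANTCAGC (the form preferred by NRF2 with a small MAF, which overlaps the first where its N is C), and for TGATGNAA (the core bound by ATF4 with a C/EBP partner). In the windows of Slc7a11, at chr3:50443614-50443863 on the minus strand, Srxn1, at chr2:152105274-152105523 on the plus strand, and Prdx1, at chr4:116685349-116685598 on the plus strand, the capitals mark the matches.
Slc7a11: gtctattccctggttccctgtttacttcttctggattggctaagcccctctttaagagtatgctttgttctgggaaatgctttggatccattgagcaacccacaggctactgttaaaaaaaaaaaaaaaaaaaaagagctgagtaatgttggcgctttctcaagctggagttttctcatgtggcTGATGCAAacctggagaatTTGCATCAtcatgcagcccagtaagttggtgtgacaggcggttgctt
Srxn1: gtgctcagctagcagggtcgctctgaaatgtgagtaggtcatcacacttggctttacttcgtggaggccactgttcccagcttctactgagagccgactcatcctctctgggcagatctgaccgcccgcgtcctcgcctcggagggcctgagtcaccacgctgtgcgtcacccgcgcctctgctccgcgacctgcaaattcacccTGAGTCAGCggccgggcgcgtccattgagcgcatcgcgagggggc
Prdx1: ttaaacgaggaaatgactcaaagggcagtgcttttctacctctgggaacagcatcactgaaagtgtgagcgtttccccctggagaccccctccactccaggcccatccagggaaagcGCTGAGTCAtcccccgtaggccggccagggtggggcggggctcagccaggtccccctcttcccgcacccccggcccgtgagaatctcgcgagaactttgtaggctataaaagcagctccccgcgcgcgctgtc
Slc7a11 held 2 matches to TGATGNAA in opposite orientations, with first bases 66 and 47 bases before the start, and no match to either NRF2 pattern. Srxn1 and Prdx1 held 1 match each to TGANTCAGC, which 1.02% of all 32851 windows hold. TGACNNNGC was found once each for Gclm, 1 of the 3 Txnrd1 windows, Prdx1 and Nfe2l2, and in 10.2% of all windows, and TGATGNAA in 3.45% of them. A match is a string of letters and not a bound site, and elements further away were outside the windows.

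The matrices held 12273 to 16099 barcodes and 92707026 to 148149903 UMIs per library. Barcodes with 1000 to 5000 genes and at most 10% mitochondrial UMIs were kept, which left 8357 cells of WT, 6554 of DTR and 4798 of B6, with medians of 13008, 12328 and 12914 UMIs. Between 13 and 15 kept barcodes were shared by each pair of libraries. 8 cell classes were gated on 6 marker genes each, none of them a member, and 85.5% to 89.9% of kept cells entered a class. The tenocyte-like class, gated on Tnmd, Fmod, Cilp2, Fibin, Thbs4 and Comp, held 5343, 2931 and 958 cells of WT, DTR and B6. The level of a gene in a class is given as CPM (a share of all UMIs, scaled by the usual constant) of the counts summed over the cells of that class, and ratios to WT carry a 95% interval that covers counting error only. The spread between mice or preparations is not in these intervals, and both comparisons share the WT library.

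Slc7a11 was lower in the tenocyte-like cells of both libraries than in those of WT. Its level there was 338 CPM in WT (24359 UMIs), 81.9 CPM in DTR (3154 UMIs) and 85.2 CPM in B6 (977 UMIs). The ratio to WT was 0.242 (0.233 to 0.252) for DTR and 0.252 (0.236 to 0.269) for B6, so the 2 lower libraries lay near each other and far from WT. Ordered from the lowest ratio, Slc7a11 was gene 11 of 5504 in DTR and gene 18 of 5301 in B6, over genes that reached 20 CPM in either library of the comparison, here called measured. At or below a ratio of 0.5 lay 1.54% of these genes in DTR and 1.96% in B6. Because the gene was chosen for this fall, its place in the order is a description.

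Fewer tenocyte-like cells carried Slc7a11 in the 2 lower libraries. After every cell was thinned to 2000 UMIs, 26.1% of tenocyte-like cells of WT had a Slc7a11 UMI (25% to 27.3%), against 6.79% of DTR (5.91% to 7.76%) and 9.30% of B6 (7.54% to 11.3%). Unthinned, the shares were 48.4%, 15.5% and 17.8%, at median depths of 12933, 12333 and 11096 UMIs. T cell-like cells, taken as the background class, had thinned shares of 1.61% in WT (0.196% to 5.70%), of 0 of 311 cells in DTR, which allows up to 0.965%, and of 0 of 82 cells in B6, which allows up to 3.66%, at median depths of 9972, 7840 and 9624.5 UMIs. The tenocyte shares of all 3 libraries lay above those of their T cell-like cells. Cells with at least 10 Slc7a11 UMIs made up 15.0% of the tenocyte-like class in WT (800 cells), 3.21% in DTR (94 cells) and 4.07% in B6 (39 cells). Among cells with any Slc7a11 UMI the level was 624, 433 and 401 CPM, with medians of 5, 3 and 2 UMIs. Such cells hold at least 1 UMI by definition, so a narrower range than that of the whole class is built in. In the cells with fewer than 10 UMIs, those with none included, the level was 107, 26.1 and 29.8 CPM. The 5% of cells richest in Slc7a11 held 42.5% of its UMIs in WT, 81.5% in DTR and 74.1% in B6.

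**Figure D1:**
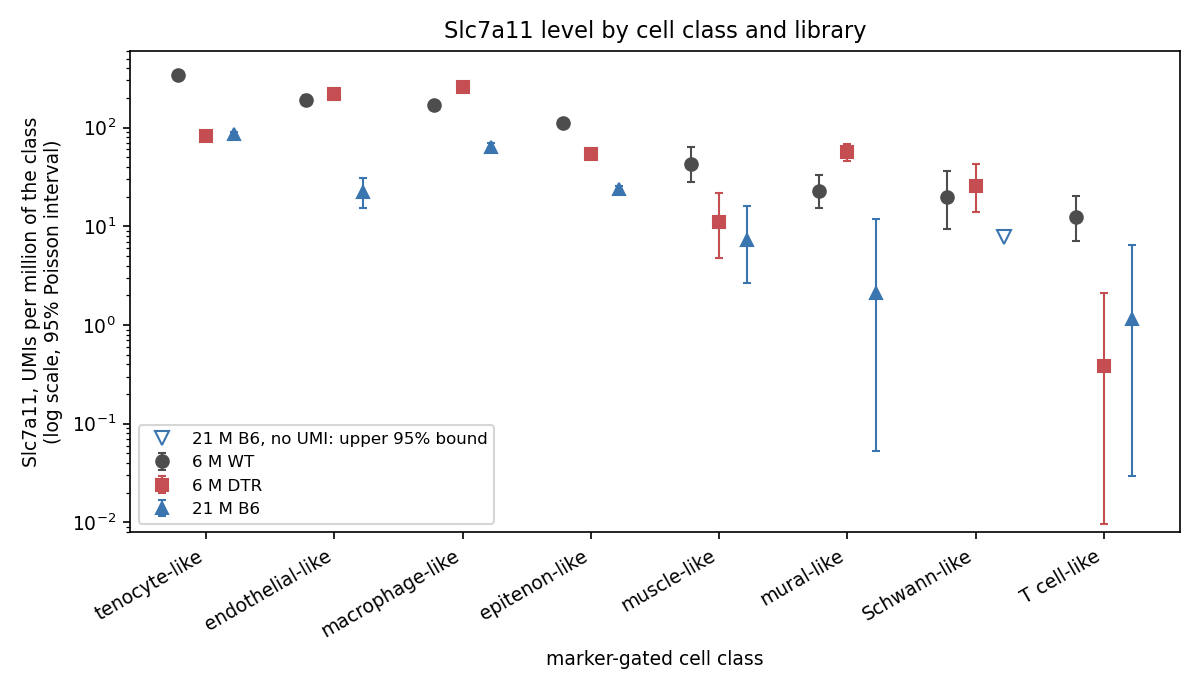
Slc7a11 in 8 marker-gated cell classes of the 3 libraries, in CPM of the class on a log axis with 95% Poisson intervals, where the open triangle marks the upper bound of a class with no UMI. The tenocyte-like level of WT, 338 CPM, is the highest point, and the B6 point is below that of WT in each class.

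Across classes the order of Slc7a11 levels differed between libraries. In WT the tenocyte-like cells led with 338 CPM, followed by endothelial-like cells with 191 CPM, macrophage-like cells with 171 CPM and epitenon-like cells with 112 CPM. Muscle-like cells had 43.2 CPM, mural-like cells 22.8 CPM, Schwann-like cells 19.8 CPM and T cell-like cells 12.5 CPM. The intervals of endothelial- and macrophage-like cells overlapped, as did those of each neighbouring pair among the last 4. In DTR the macrophage-like cells led with 257 CPM and endothelial-like cells followed with 220 CPM, above the tenocyte-like 81.9 CPM. Mural-like cells with 56.6 CPM and epitenon-like cells with 54.0 CPM did not differ beyond their intervals, nor did Schwann-like cells with 25.4 CPM and muscle-like cells with 11.2 CPM, and T cell-like cells held 1 UMI. In B6 the tenocyte-like cells led again with 85.2 CPM, above macrophage-like cells with 64.1 CPM. Epitenon-like cells with 23.6 CPM and endothelial-like cells with 22.2 CPM did not differ beyond their intervals, muscle-like cells had 7.31 CPM with an interval that reached that of endothelial-like cells, and mural- and T cell-like cells held 1 UMI each. No UMI was counted in the 51 Schwann-like cells of B6, where 3 counts would be 6.38 CPM. The macrophage-like level was 0.506 times the tenocyte-like level in WT, 3.14 times in DTR and 0.753 times in B6.

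Tenocyte RNA found in other classes sets a scale for these levels. The 6 tenocyte markers reached 9.71%, 6.25% and 6.21% of their tenocyte-like level in the epitenon-like cells of WT, DTR and B6, and at most 0.958% in macrophage-like and 1.21% in endothelial-like cells. At those shares, tenocyte RNA would bring 32.8, 5.12 and 5.29 CPM of Slc7a11 to epitenon-like cells, against 112, 54.0 and 23.6 CPM measured. It would bring at most 3.24 CPM to macrophage-like and 4.08 CPM to endothelial-like cells, far under the levels measured there. In the Schwann-like cells of WT it would bring 31.9 CPM, above the 19.8 CPM measured, so that level was no higher than carried-over RNA alone could give. The same 6 markers also set the gate, which kept cells with high scores for them out of the other classes. The shares are therefore partly fixed by the gate and may be too small.

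In epitenon-like cells Slc7a11 was below WT in both libraries, while in macrophage-like cells it was above WT in DTR and below it in B6. In epitenon-like cells, gated on Efemp1, Pi16, Clec3b, Ccn3, Dpp4 and Cd248, the Slc7a11 ratio to WT was 0.483 (0.445 to 0.523) in DTR and 0.211 (0.194 to 0.230) in B6. Carried-over tenocyte RNA could be 32.8 of the 112 CPM of WT, 5.12 of the 54.0 CPM of DTR and 5.29 of the 23.6 CPM of B6. It was not taken off these ratios, and its part in the DTR value lying under 0.5 was not tested. Among genes tested there, 1.01% lay at or below 0.5 in DTR and 1.26% in B6, and Slc7a11 was gene 54 of 5730 and gene 2 of 5707 from the lowest. In macrophage-like cells the ratio was 1.5 (1.41 to 1.60) in DTR and 0.375 (0.336 to 0.418) in B6. At or below 0.5 lay 0.954% of genes in DTR and 2.76% in B6, and Slc7a11 was gene 5349 of 5453 and gene 68 of 5539. The thinned shares of macrophage-like cells with a Slc7a11 UMI were 13.4% in WT (10.6% to 16.6%) and 16.7% in DTR (14.4% to 19.1%), which overlapped. In B6 the share was 6.65% (4.56% to 9.31%). In endothelial-like cells the ratio was 1.15 (0.974 to 1.35) in DTR and 0.116 (0.0783 to 0.167) in B6, and in mural-like cells of DTR it was 2.48 (1.62 to 3.92), on 28 UMIs of WT and 102 of DTR. The thinned shares of mural-like cells with a Slc7a11 UMI, 2.05% in WT and 5.45% in DTR, had intervals that overlapped. The 6 mural markers summed to 634, 584 and 2431 CPM in the endothelial-like cells of WT, DTR and B6, none at 0, and the mural-like cells of B6 held 1 Slc7a11 UMI. The 5 erythrocyte markers summed to 644 CPM in the mural-like cells of WT and 11970 CPM in those of DTR, none at 0. The part of either in these ratios was not tested. Over the 8 classes the interval lay below 1 in 4 and above 1 in 2 for DTR, and below 1 in all 8 for B6. For all genes measured in tenocyte-, epitenon- and macrophage-like cells, 36.5%, 22.9% and 28.2% of intervals lay below 1 in DTR. Above 1 lay 42.3%, 23.4% and 16.1%. In B6 64%, 69.1% and 36.6% lay below 1 and 18.4%, 14.7% and 22.7% above. The T cell-like values rest on 16, 1 and 1 UMIs, 9 of the 16 from 1 cell. The mural-like values of WT and B6 rest on 28 and 1 UMIs and the Schwann-like on 10 and 0. The muscle-like rest on 26 and 6, with 9 of the 26 in 1 cell.

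Within the macrophage cluster, Slc7a11 was richest in cells that the marker gate left out. When cells were grouped by clustering instead of by markers, the macrophage ratio of DTR turned to a log2 value of -0.64, or 0.642 times WT. The macrophage cluster of WT held 147 cells that were not macrophage-like under the gate, and their Slc7a11 level was 1945 CPM against 171 CPM in the gated cells. The same cells of DTR (122 cells) had 708 CPM and those of B6 (64 cells) 942 CPM. The 5 neutrophil markers S100a8, S100a9, Retnlg, Csf3r and Cxcr2 summed to 6345, 190 and 1277 CPM in these cells, and the macrophage markers to 1092, 1102 and 822 CPM, against 7665 to 9607 CPM in the gated cells of the cluster. In those with no UMI of a neutrophil marker, 90, 115 and 57 cells, Slc7a11 was still 1001, 682 and 837 CPM.

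Subsets of the gated classes also differed in Slc7a11, by split genes chosen after their values were seen. A cell was called positive after thinning to 2000 UMIs, and levels were taken from all its counts. Macrophage-like cells with a UMI of H2-Aa, an MHC class II chain, had 990, 699 and 510 CPM of Slc7a11 in WT, DTR and B6, against 136, 200 and 16.5 CPM in those without. They made up 4.02%, 11.9% and 10.3% of the class. With a UMI of Il1b, the cytokine interleukin-1 beta, the levels were 372, 559 and 496 CPM, against 89.2, 164 and 41.6 CPM without. Endothelial-like cells with a UMI of Selp, the adhesion molecule P-selectin of venules, had 457, 350 and 197 CPM against 112, 159 and 5.17 CPM, the last pair from 26 and 7 UMIs. In each of these splits the positive cells lay above the negative cells in all 3 libraries. Tenocyte-like cells with a UMI of Lcn2, an acute-phase gene, had 550 CPM against 304 CPM in WT, 192 against 75.5 CPM in DTR and 76.8 against 85.7 CPM in B6. The last 2 values did not differ beyond counting error, with a ratio of 0.90 (0.67 to 1.18). Both the positive and the negative tenocyte-like cells of WT lay above those of the other libraries. Tenocyte-like cells were also split by Slurp1, Ucma and Igfbp3 and epitenon-like cells by Gdf10, and those values are not given here.

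Of the other 9 members, Nqo1 was the 1 whose interval in tenocyte-like cells lay below 1 in both libraries. In the tenocyte-like cells of DTR most of the 9 were lower than in WT, by less than 2-fold each, while in B6 most were at or above WT. 9 of the 10 members passed the 20 CPM minimum in this class, with Nqo1 below it. Of these 9, 8 had an interval below 1 in DTR and 1 above, where 36.5% of all genes measured lay below and 42.3% above. In B6 2 had an interval below 1 and 6 above, where 64% of all genes lay below and 18.4% above. Slc7a11, chosen for its fall in these cells, is 1 of the 9 and is counted below 1 in both libraries. Among the 9, Slc7a11 alone lay at or below 0.5 in either library, and none reached 2, a ratio that 2.07% of all genes reached in DTR and 3.57% in B6. The median log2 ratio of the 9 was -0.46 in DTR and 0.11 in B6, beside 0.02 and -0.25 for all genes tested. With scaling by TMM the medians of all genes were -0.09 and -0.03, so in B6 a gene at a ratio of 1 in CPM lay above most genes.

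Hmox1, heme oxygenase, which breaks down heme to biliverdin, iron and carbon monoxide, had 271, 173 and 292 CPM in the tenocyte-like cells of WT, DTR and B6. DTR was the low library, with a ratio of 0.639 (0.622 to 0.658), and B6 stood at 1.08 (1.04 to 1.12), though at 0.939 in cells called female. Nqo1, a quinone reductase, was sparse, with 15.0, 9.76 and 7.41 CPM, and was lower in both, at 0.653 (0.579 to 0.735) and 0.496 (0.393 to 0.619). These values rest on 1078, 376 and 85 UMIs.

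The glutathione synthesis genes moved apart between the libraries. Gclc had 158, 101 and 177 CPM and Gclm 86.6, 63.6 and 94.9 CPM. Both were lowest in DTR, with ratios of 0.637 (0.614 to 0.661) and 0.734 (0.700 to 0.769), and slightly above WT in B6, with 1.12 (1.07 to 1.17) and 1.10 (1.03 to 1.17). Gpx4, the lipid peroxidase, had 362, 438 and 334 CPM. It was the member that was higher in DTR, with a ratio of 1.21 (1.19 to 1.23), and it was at 0.922 (0.891 to 0.954) in B6, which turned to 1.07 with TMM scaling.

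Txnrd1, the cytosolic thioredoxin reductase, had 292, 206 and 450 CPM, with a ratio of 0.705 (0.687 to 0.723) in DTR and of 1.54 (1.49 to 1.59) in B6. That was the highest ratio of the 10 members in tenocyte-like cells. Srxn1, which repairs overoxidized peroxiredoxins, had 63.8, 46.5 and 76.5 CPM and ratios of 0.729 (0.689 to 0.770) and 1.20 (1.11 to 1.29). Prdx1, a peroxiredoxin that removes hydrogen peroxide, had 472, 430 and 481 CPM and the smallest changes, 0.911 (0.894 to 0.928) and 1.02 (0.992 to 1.05). Nfe2l2, the NRF2 gene itself, had 251, 194 and 271 CPM, with 0.773 (0.752 to 0.794) and 1.08 (1.04 to 1.12). In DTR the members other than Slc7a11 and Gpx4 thus stood between 0.637 and 0.911, and Gpx4 stood above 1.

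**Figure D2:**
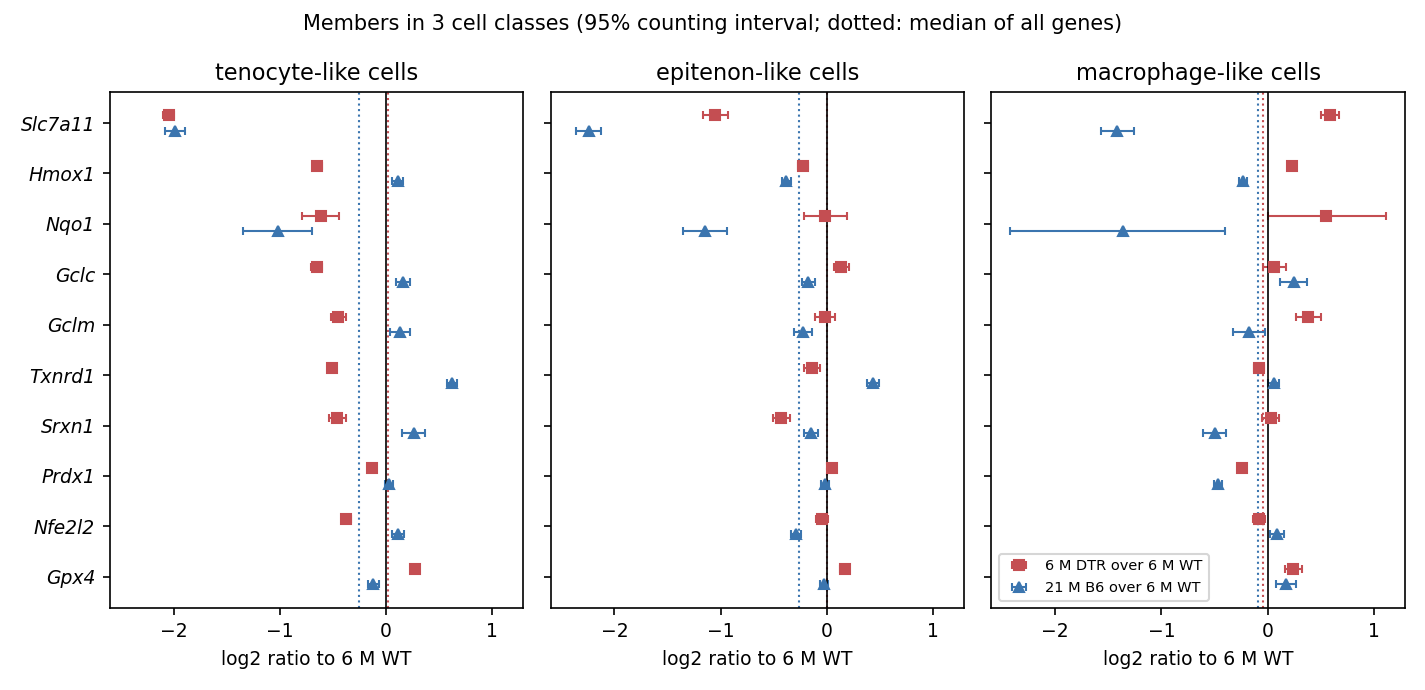
Log2 ratio to WT of the 10 members in tenocyte-, epitenon- and macrophage-like cells, with red squares for DTR, blue triangles for B6, bars for 95% counting intervals and dotted lines for the median of all genes tested. Slc7a11 lies at -2.04 and -1.99 in tenocyte-like cells, while in macrophage-like cells it lies at 0.59 in DTR and -1.42 in B6.

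In epitenon-like cells the members of DTR lay closer to WT. All 10 were measured, 4 had an interval below 1 and 3 above, beside 22.9% and 23.4% of all genes, and Slc7a11 was the 1 member at or below 0.5, with a median log2 ratio of -0.03 beside 0.0047 for all genes. Srxn1 was at 0.743 (0.702 to 0.787), from 174 CPM to 129 CPM, and Hmox1 at 0.857 (0.829 to 0.885). Both turned with the sex of the cells, called as given further on. Srxn1 was at 0.534 (0.488 to 0.584) in cells called female and at 1.07 (0.975 to 1.18) in those called male, and Hmox1 at 0.562 (0.532 to 0.594) and 1.13 (1.07 to 1.19). Gclc, at 0.637 in tenocyte-like cells, was at 1.10 (1.05 to 1.15) here, from 0.897 (0.833 to 0.967) in female and 1.17 (1.09 to 1.26) in male cells. In B6, 7 of 10 had an interval below 1 and 1 above, beside 69.1% and 14.7% of all genes, Slc7a11 and Nqo1 lay at or below 0.5, and the median was -0.20 beside -0.26. Nqo1 had 25.2, 24.9 and 11.4 CPM in WT, DTR and B6, a ratio of 0.452 (0.391 to 0.521) in the last. Txnrd1 was again the member above 1, with 275 CPM in B6 and a ratio of 1.35 (1.30 to 1.40). With TMM scaling, which raised the epitenon-like log2 ratios of B6 by 0.30, Gclc stood at 1.09 in place of 0.887 and Gclm at 1.05 in place of 0.857. At or above 2 lay 0.366% of genes in DTR and 1.82% in B6, and no member.

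In macrophage-like cells, gated on C1qa, C1qb, C1qc, Csf1r, Adgre1 and Mrc1, the members Slc7a11, Hmox1, Gclm and Gpx4 were higher in DTR. Hmox1 had 1553 CPM in WT, 1814 CPM in DTR and 1321 CPM in B6, with ratios of 1.17 (1.14 to 1.19) and 0.850 (0.828 to 0.874). Gclm had 106, 139 and 94.2 CPM, with 1.30 (1.21 to 1.41) and 0.886 (0.80 to 0.982), the last with intervals that held 1 in cells called female and in those called male. Prdx1 was lower in both, at 0.847 (0.830 to 0.863) and 0.722 (0.704 to 0.740), from 2039.7 CPM in WT, and Srxn1 was at 0.708 (0.657 to 0.764) in B6. 9 members passed the minimum. None lay past 2-fold in DTR, where 3 had an interval below 1 and 4 above, beside 28.2% and 16.1% of all genes, and 0.66% of genes lay at or above 2. In B6 5 had an interval below 1 and 4 above, beside 36.6% and 22.7% of all genes, and Slc7a11 was the 1 member at or below 0.5, with 2.71% of genes at or above 2.

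Outside tenocytes the Hmox1 ratio of DTR was read beside other measures. In mural-like cells Hmox1 was at 2.21 times WT (1.87 to 2.63), with 128 of its 585 UMIs of DTR in 1 cell, and in Schwann-like cells at 1.97 times (1.46 to 2.67). The thinned shares of cells with a Hmox1 UMI in WT and DTR were 13.0% and 19.3% in mural-like cells. In Schwann-like cells they were 9.09% and 20.2%, and the intervals overlapped in both classes. The 5 erythrocyte markers were higher too, at 644 and 11970 CPM in WT and DTR in mural-like and at 59.3 and 19446 CPM in Schwann-like cells, with none at 0 in DTR, and their part in these ratios was not tested. In T cell-like cells 106 of the 192 Hmox1 UMIs of DTR came from 1 cell, so no ratio is given. The thinned shares there were 4.84% in WT and 6.43% in DTR, with intervals that overlapped. In muscle-like cells the ratio was 0.721 (0.590 to 0.880), with 47 of the 219 UMIs of WT in 1 cell and thinned shares of 19.0% in WT and 20.4% in DTR. In B6 Hmox1 was at 0.517 (0.480 to 0.555) in endothelial-like cells, with 767 CPM against 1486 CPM in WT. The thinned shares of these cells with a Hmox1 UMI were 47.4% in WT and 43.1% in B6, with intervals that overlapped. The 6 mural markers stood at 634 CPM in the endothelial-like cells of WT and at 2431 CPM in those of B6, and the mural-like cells of B6 had 112 CPM of Hmox1. The erythrocyte markers stood at 46.2 and 3594 CPM in the endothelial-like cells of WT and B6, and the part of either list in this ratio was not tested.

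Cells with a Slc7a11 UMI also held more of most other members. After thinning to 2000 UMIs, 1426 of the tenocyte-like cells of WT, 193 of DTR and 77 of B6 had one, in a draw made for this split. Their Hmox1 level was 2.67, 3.60 and 1.28 times that of the cells without, their Srxn1 level 2.27, 2.89 and 1.71 times, their Nfe2l2 level 1.74, 1.91 and 1.66 times and their Txnrd1 level 1.73, 2.76 and 1.62 times, each with an interval above 1. Gclc and Gclm were also above 1 in all 3 libraries, from 1.24 to 1.56. Prdx1 was at 1.19 and 1.33 in WT and DTR and at 0.98 (0.90 to 1.08) in B6. Gpx4 was below 1 in each, at 0.90, 0.91 and 0.84. The positive cells were deeper, with medians of 14143.5, 15133 and 11627 UMIs against 12373, 12226 and 11052.5 UMIs. Sex, called as given further on, also went with these genes in tenocyte-like cells of WT. Female and male cells had 394 and 225 CPM of Slc7a11, 309 and 198 of Hmox1, 271 and 215 of Nfe2l2 and 306 and 277 of Txnrd1. Gpx4 went the other way, with 356 and 372 CPM. The part of depth or sex in the ratios of this split was not tested, and no share of all genes stands beside them.

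**Figure D3:**
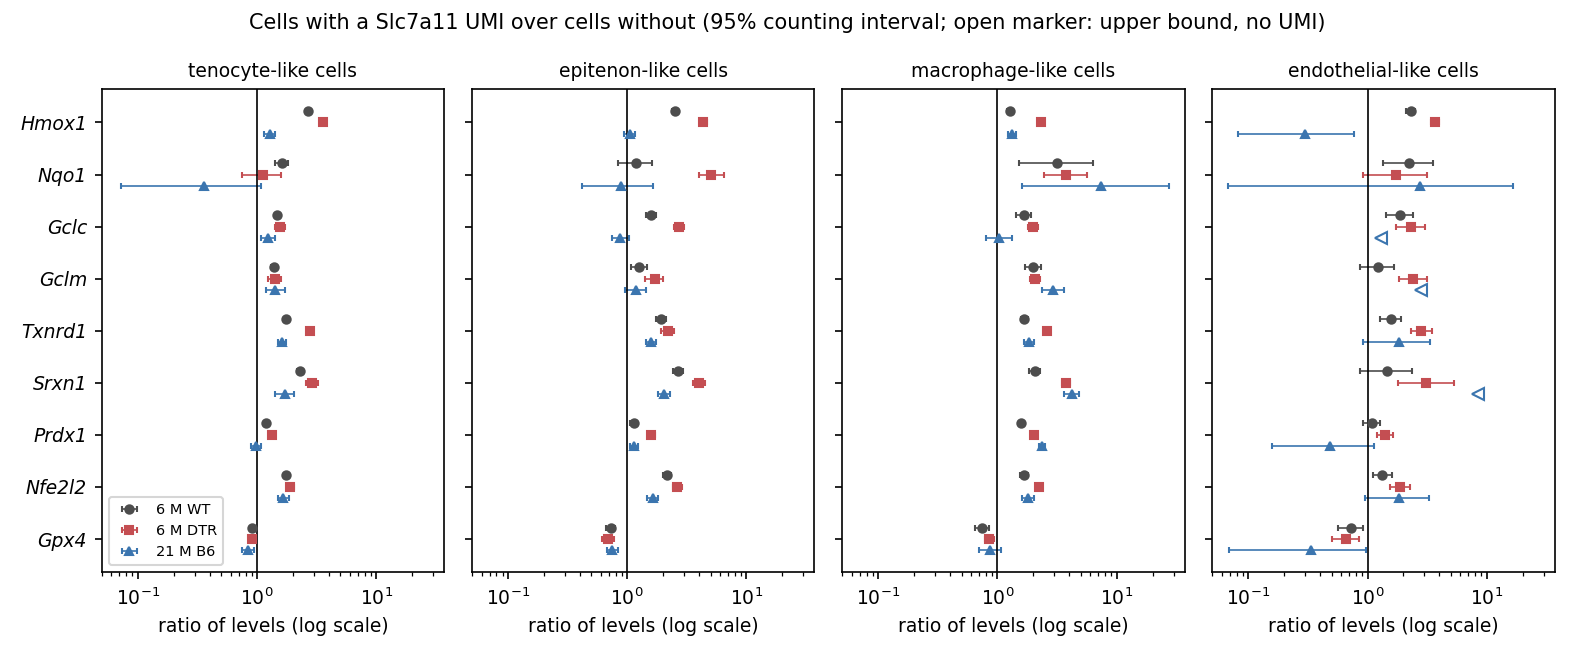
Ratio of the level of 9 members in cells with a Slc7a11 UMI to that in cells without, on a log axis, in 4 classes of the 3 libraries with 95% counting intervals, where open markers give the upper bound of a member with no UMI in the positive cells. Gpx4 is at or to the left of 1 where most members are to the right, and the endothelial-like cells of B6 rest on 1 positive cell.

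The same split in macrophage-like cells put Srxn1 at 2.06, 3.76 and 4.21 times the level of the negative cells, Gclm at 1.99, 2.07 and 2.93 times, and Prdx1 at 1.57, 2.04 and 2.38 times in WT, DTR and B6. In epitenon-like cells Hmox1 was at 2.50 and 4.36 times in WT and DTR and at 1.05 (0.95 to 1.17) in B6. Srxn1 was at 2.67, 4.01 and 2.05 times there, and Gpx4 at 0.73, 0.69 and 0.75 times. Srxn1, Txnrd1 and Nfe2l2 thus lay above 1 in tenocyte-, epitenon- and macrophage-like cells of all 3 libraries. Gpx4 lay between 0.69 and 0.91 in them, with an interval that held 1 in the macrophage-like cells of B6 alone.

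The members were next set within 9 lists of 85 antioxidant, cystine, iron and stress response genes, which hold the 10 members. In tenocyte-like cells 65 of them were measured. In DTR 6 lay at or below a ratio of 0.5, where 1.54% of all genes did, and none at or above 2, where 2.07% did. In B6 1 lay at or below 0.5 and 2 at or above 2, near the 1.96% and 3.57% of all genes. Intervals lay below 1 for 41 and above 1 for 17 of the 65 in DTR, and for 30 and 26 in B6, to be read against the shares of all genes given above for the members (36.5% and 42.3% in DTR, 64% and 18.4% in B6). The 6 genes low in DTR were Slc7a11, Cth, Chac1, Sod2, Trib3 and Asns. Slc7a11, which was chosen for its fall in these cells, is also the 1 gene low in B6, so both counts hold it by choice. The median log2 ratio of the 65 was -0.22 in DTR and -0.07 in B6, beside 0.02 and -0.25 for all genes.

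3 of the 6 belong to cystine and glutathione handling. Cth, cystathionine gamma-lyase, which releases cysteine from cystathionine, had 25 CPM in WT, 6.83 CPM in DTR and 23.5 CPM in B6, a ratio of 0.273 (0.239 to 0.311) in DTR and of 0.937 (0.821 to 1.07) in B6. Chac1, which cleaves glutathione and is a target of ATF4, had 103, 33.1 and 103 CPM, with 0.321 (0.302 to 0.341) and 0.999 (0.939 to 1.06). In B6 the intervals of both held 1, where Slc7a11 was at 0.252. Of the cystine and glutathione list, 11 of 16 genes were measured. In DTR 8 had an interval below 1 and 2 above, beside 36.5% and 42.3% of all genes. In B6 2 lay below and 7 above, beside 64% and 18.4%. Slc7a11, chosen for its fall, is among those below in both libraries. Slc3a2, the partner of Slc7a11, which is named for its role after its values were seen, had 226, 159 and 247 CPM and ratios of 0.703 (0.682 to 0.724) and 1.10 (1.05 to 1.14).

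The list of ATF4 and the amino acid response had 11 of 14 genes measured. In DTR 10 of the 11 had an interval below 1 and none above, beside 36.5% and 42.3% of all genes, 3 were at or below 0.5, beside 1.54%, and the median log2 ratio was -0.51. In B6 3 had an interval below 1 and 6 above, beside 64% and 18.4% of all genes, with a median of 0.13. Trib3, a pseudokinase induced by ATF4, had 33.2, 13.7 and 22.2 CPM, with a ratio of 0.413 (0.375 to 0.454) in DTR and of 0.670 (0.586 to 0.762) in B6. Asns, asparagine synthetase, had 74.8, 35.4 and 54.8 CPM, with 0.473 (0.446 to 0.502) and 0.734 (0.674 to 0.797). Atf4 itself, named after its values were seen, had 469, 400 and 615 CPM, with 0.854 (0.838 to 0.870) and 1.31 (1.28 to 1.35). In epitenon-like cells of DTR 9 of 11 genes of this list had an interval below 1, beside 22.9% of all genes, and none above, with a median of -0.23. In macrophage-like cells of DTR 8 of 9 lay below, beside 28.2%, and 1 above, with a median of -0.26. Chac1 was at 0.888 (0.809 to 0.974) in epitenon-like and at 0.534 (0.447 to 0.639) in macrophage-like cells of DTR, where Slc7a11 was at 1.5.

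Of the 72 list genes with a promoter window, 4, or 5.56%, held TGATGNAA in the 250 bases before a start, near the 3.91% of all 27025 genes. They were Slc7a11, Asns, Chac1 and Vldlr. TGACNNNGC was held by 17 of the 72, or 23.6%, and TGANTCAGC by 5, or 6.94%, beside 11.5% and 1.17% of all genes. The lists hold the NRF2 genes named above by choice. The windows of Asns, at chr6:7693210-7693459 on the minus strand, and Chac1, at chr2:119350992-119351241 on the plus strand, are shown because both genes were low with Slc7a11 in DTR. Capitals mark the match to TGATGNAA alone, and the Asns window also held 1 match to TGACNNNGC, left in small letters.
Asns: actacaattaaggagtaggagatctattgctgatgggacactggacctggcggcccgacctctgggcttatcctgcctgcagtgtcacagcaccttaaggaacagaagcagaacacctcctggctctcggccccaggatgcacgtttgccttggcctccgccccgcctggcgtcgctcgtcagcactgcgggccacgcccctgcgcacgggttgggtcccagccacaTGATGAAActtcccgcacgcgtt
Chac1: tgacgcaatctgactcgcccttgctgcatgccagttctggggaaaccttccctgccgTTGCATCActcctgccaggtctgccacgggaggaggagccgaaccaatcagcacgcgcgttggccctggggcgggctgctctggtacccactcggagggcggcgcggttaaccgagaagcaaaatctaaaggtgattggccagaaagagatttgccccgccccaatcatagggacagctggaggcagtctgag
The TGATGNAA match of Asns starts 23 bases and that of Chac1, on the other strand, 193 bases before the start. Vldlr, a lipoprotein receptor, had 4.49, 3.40 and 2.79 CPM and was not measured at the 20 CPM minimum. Sod2 and Trib3 held no match in these windows and Cth had no window in the table.

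**Figure D4:**
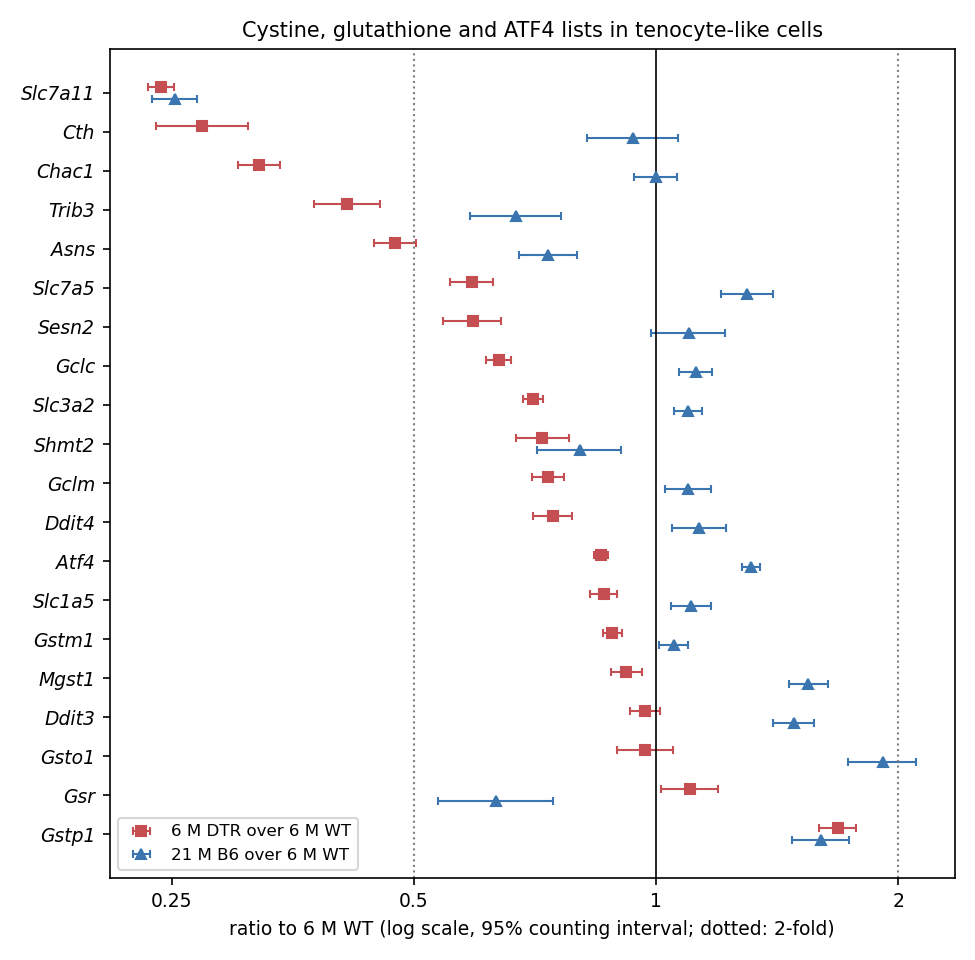
Ratio to WT in tenocyte-like cells, on a log axis with 95% counting intervals, of the 20 genes of the cystine and glutathione list and the ATF4 list with at least 20 CPM in 1 library, ordered by DTR, with dotted lines at 2-fold. Slc7a11, Cth, Chac1, Trib3 and Asns lie left of 0.5 in DTR, and in B6 Slc7a11 does.

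Sod2, the mitochondrial superoxide dismutase, had 427, 172 and 402 CPM in tenocyte-like cells, with 0.402 (0.391 to 0.413) in DTR and 0.941 (0.912 to 0.971) in B6. In the superoxide, catalase and glutathione peroxidase list, which holds it, 9 of 10 genes were measured. In DTR 2 had an interval below 1 and 6 above, beside 36.5% and 42.3% of all genes. In B6 7 lay below and 2 above, beside 64% and 18.4%. In B6 the 2 genes at or above 2 were the metallothioneins Mt1 and Mt2, which bind zinc and copper. Mt1 had 10589.5, 7137 and 25069 CPM, with 0.674 and 2.37, and Mt2 had 4179, 2376 and 10171 CPM, with 0.569 and 2.43. Of the NRF2 regulation list 9 of 10 were measured. In DTR 6 had an interval below 1 and 2 above, and in B6 4 below and 5 above, beside the same shares of all genes. Keap1, the inhibitor of NRF2, and Bach1, a repressor at the same elements, both named after their values were seen, were at 1.24 (1.16 to 1.33) and 1.29 (1.22 to 1.37) in DTR, and at 0.711 (0.619 to 0.814) and 1.39 (1.27 to 1.51) in B6. They were the 2 genes of this list above 1 in DTR, where 6 lay below, Nfe2l2 at 0.773 among them.

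The remaining lists had no gene past 2-fold in tenocyte-like cells other than Slc7a11, which the ferroptosis list also holds. Of all genes measured in tenocyte-like cells, 36.5% had an interval below 1 and 42.3% above in DTR. In B6 64% lay below and 18.4% above. The counts of the lists that follow are to be read against these shares. Of the thioredoxin and peroxiredoxin list 12 of 13 were measured, 8 with an interval below 1 and 3 above in DTR and 7 below and 2 above in B6. Of the quinone, heme and iron list 8 of 11 were measured, with 5 below and 2 above in DTR and 3 and 3 in B6. Of the NADPH supply list 4 of 6 were measured, with 2 below and 1 above, and 3 below and 0 above. Of the ferroptosis list 5 of 8 were measured, with 3 below and 2 above, and 3 below and 0 above, Slc7a11 being among those below in both libraries.

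The genes most like Slc7a11 across classes were not members. Over 21 sums, from the 7 classes with at least 50 cells in each library, Pearson's r of log2(CPM + 1) with Slc7a11 was highest for Exoc3l4 (0.872), Mapk6 (0.861), Il13ra1 (0.854), Tlr2 (0.832) and Nrp2 (0.810) among 9849 genes. 4 of the 5 were also among the 5 highest by Spearman's rho. The sums share 3 libraries, so these values are a description. Of the 5, Tlr2, a receptor of the innate immune system, and Nrp2, a coreceptor for semaphorins and VEGF, were also lower in the tenocyte-like cells of both libraries, with 439, 138 and 182 CPM for Tlr2 and 240.2, 173 and 185 CPM for Nrp2, while Mapk6 had 137, 142 and 128 CPM. Among the members r was 0.724 for Hmox1, 0.638 for Nfe2l2, 0.533 for Nqo1, 0.500 for Txnrd1 and -0.553 for Gpx4, and from 0.316 to 0.467 for Gclc, Gclm, Srxn1 and Prdx1.

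Other measures moved with the tenocyte-like values. The 5 neutrophil markers summed to 39.8 CPM in the tenocyte-like cells of WT, with none at 0, and to 1.17 and 0.785 CPM in DTR and B6, with 1 at 0 in each. They were seen in 9.53%, 1.13% and 0.731% of cells. At the ratio of Slc7a11 to these markers in the ungated cells of the macrophage cluster, they would bring 12.2 CPM of the 338 CPM of WT, and without the cells that carried them the ratios were 0.242 and 0.257. The 5 erythrocyte markers summed to 991, 4610 and 1060 CPM, none at 0, and 8 dissociation response genes such as Fos and Jun to 4478, 7011 and 11002 CPM, none at 0, and the part of either in the result was not tested. Mitochondrial UMIs had medians of 2.79%, 2.86% and 5.60%, and with a limit of 5% the ratios were 0.242 and 0.269. The macrophage markers stood at 14.1, 28.3 and 19.2 CPM, none at 0, beside 7658 CPM in the macrophage-like cells of WT.

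The share of cells from females also moved with the groups. Cells with Xist and no Y-linked UMI were called female and those with the reverse male, and 72.5%, 41.1% and 53.2% of the called tenocyte-like cells of WT, DTR and B6 were female. Slc7a11 had 394 CPM in female and 225 CPM in male tenocyte-like cells of WT, 108 and 76.7 CPM in those of DTR, and 110 and 63.2 CPM in those of B6. Female cells thus stood above male cells in each library, and both stood highest in WT. Within female cells the ratios were 0.274 (0.260 to 0.290) and 0.279 (0.255 to 0.304), and within male cells 0.341 (0.321 to 0.363) and 0.281 (0.247 to 0.319). In epitenon-like cells the fall in DTR was found in female cells, at 0.217 (0.186 to 0.253), while the interval in male cells, at 1.12 (0.974 to 1.29), held 1, and in B6 it was found in both, at 0.202 and 0.285. In macrophage-like cells of DTR the ratio was 1.15 (1.05 to 1.26) in female and 1.89 (1.69 to 2.13) in male cells. Each sex of a library is a part of the same pool, and the difference between the sexes was not tested.

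**Figure D5:**
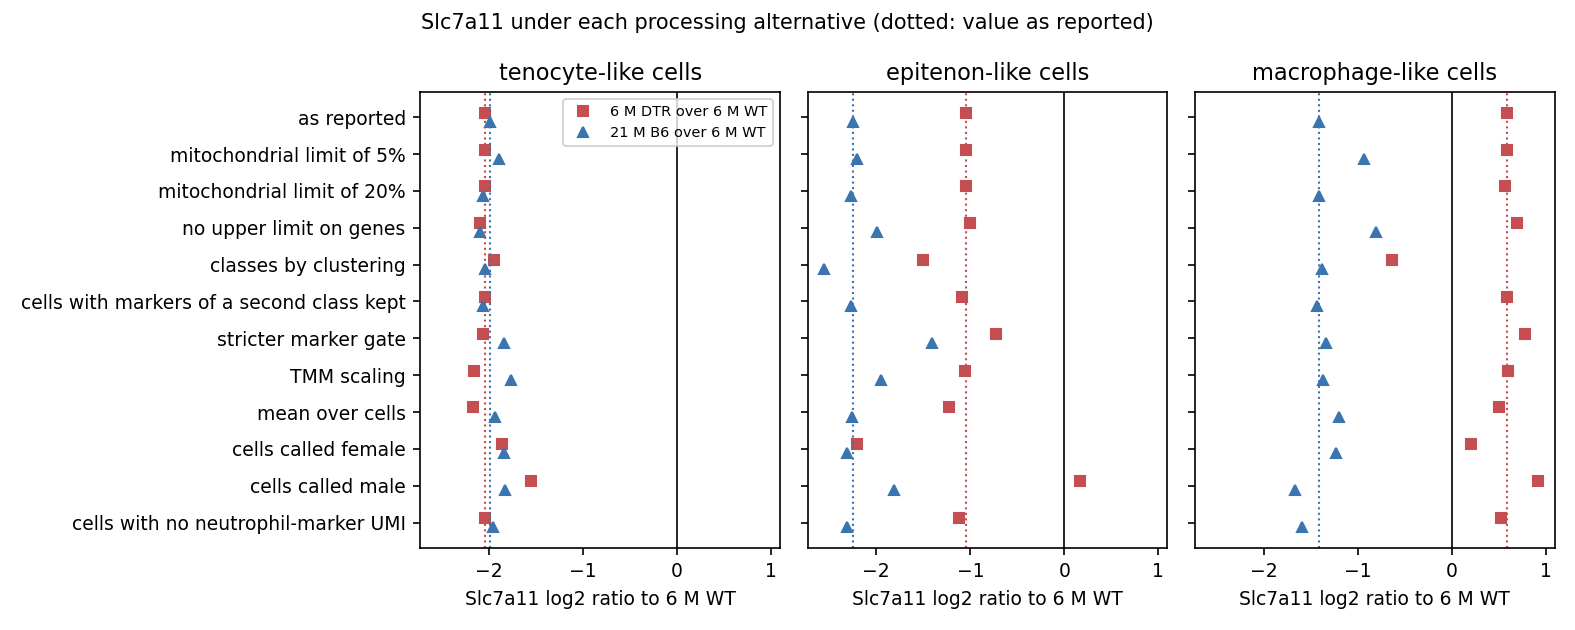
Log2 ratio of Slc7a11 to WT as reported and under 11 alternatives in tenocyte-, epitenon- and macrophage-like cells, with red squares for DTR, blue triangles for B6 and dotted lines at the values as reported. The tenocyte-like values stay between -2.17 and -1.55, while the macrophage-like value of DTR crosses 0 with classes by clustering and the epitenon-like value does so in cells called male.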

How the data were processed

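FDL tendon cells of 3 libraries were measured by 10x single-cell RNA sequencing. The authors deposited matrices of raw UMI counts per gene and cell, made with Cell Ranger, whose version is 6.0.1 in the matrix headers and 2.1.1 in the submitters' processing notes. The genome build is not given in the sources used here. The spread between mice is not in any value, because each group was 1 library and no test across samples was possible.

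Barcodes were kept at 1000 to 5000 genes and no more than 10% mitochondrial UMIs. Each cell was scored for 8 classes by the mean log-normalized count of 6 markers, divided by the 99th percentile of the non-zero scores, and entered the top class at a score of at least 0.25 and 1.5 times the next. Cells whose top score was under 1.5 times the next were thereby left out. Cells with weaker markers of a second class stayed in, and no doublet caller was run. Counts were summed per class and library (CPM), ratios carry exact conditional binomial 95% intervals, shares exact binomial intervals after thinning to 2000 UMIs, and a count of 0 was set against a floor of 3 counts. These cover counting error only. A gene counted as measured where either library of a comparison reached 20 CPM. Correlations used log2(CPM + 1). The ratio script was tested on simulated data.

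The members, lists and markers were chosen with earlier results of these data known, and the cuts of the gate after seeing the data. Genes named were the 10 members, list genes past 2-fold in tenocyte-like cells (at most 5 per list and comparison) and the 5 genes with the highest r with Slc7a11. Alternatives changed the cell filters, the gate, the scaling and the cells used. Promoters came from RefSeq (GRCm38.p6). Python 3.11.15, numpy 2.4.6, scipy 1.17.1, pandas 2.3.3, matplotlib 3.10.9, R 4.3.3, Seurat 5.3.0 (clustering) and edgeR 4.0.16 (TMM factors) were used.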

Additional observations from a re-analysis of the deposited data

Results flagged for a closer look

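The Slc7a11 ratio of DTR to WT went in opposite directions in different cell classes of the same 2 libraries. It was 0.242 in tenocyte-like cells and 0.483 in epitenon-like cells, and 1.5 in macrophage-like cells. With 1 library per group the difference between classes was not tested, and the macrophage-like value turned below 1 with classes by clustering. The epitenon-like value was 0.217 (0.186 to 0.253) in cells called female and 1.12 (0.974 to 1.29) in those called male. The thinned shares of macrophage-like cells with a Slc7a11 UMI, 13.4% in WT and 16.7% in DTR, had intervals that overlapped.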

How the results depend on the processing

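The Slc7a11 log2 ratio in tenocyte-like cells kept its direction under all 11 alternatives, 10 planned and 1, cells with no neutrophil-marker UMI, chosen after seeing the data. For DTR, -2.04 as reported became -1.94 with classes by clustering, -2.16 with TMM scaling, -2.17 as a mean over cells, -1.87 in cells called female and -1.55 in cells called male. For B6, -1.99 became -2.10 with no upper limit on genes, -1.83 with the stricter gate and in cells called male, -1.77 with TMM scaling and -1.84 in cells called female. In epitenon-like cells the DTR value turned to 0.16 in cells called male, and in macrophage-like cells to -0.64 with classes by clustering, and the cause was not tested. The share of tenocyte-like cells with a Slc7a11 UMI in WT, DTR and B6 was 17.9%, 4.50% and 5.22% when thinned to 1000 UMIs and 48.4%, 15.5% and 17.8% unthinned, and 38.3% and 10.2% in WT and DTR at 2 or more UMIs unthinned. At 1.5-fold, 13 list genes were lower and 2 higher in DTR, and 5 lower and 8 higher in B6. In B6, 5 were lower with a minimum of 5 CPM, 6 were lower with 1 count in each library, and 4 were higher with TMM scaling. No share of all genes stands beside the counts at 1.5-fold or under these alternatives, so they are no result about the lists. No paired analysis was possible because each group was 1 library. The small classes, such as the 51 Schwann-like cells of B6, and Nqo1, with 85 UMIs in the tenocyte-like cells of B6, have few cells or UMIs, which limits the precision of their values.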
